A study of Arabidopsis thaliana with 12 samples.

Results

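The 8 genes described here encode Arabidopsis thaliana splicing factors with domains rich in arginine and serine: SR45 (AT1G16610) and SR45a (AT1G07350), the SC35-like proteins SCL33 (AT1G55310), SCL30A (AT3G13570), SCL30 (AT3G55460) and SCL28 (AT5G18810), and the zinc-knuckle proteins RS2Z32 (AT3G53500) and RS2Z33 (AT2G37340). They were taken by locus from 24197 annotated nuclear genes with an intron. No cutoff on their values was used, but earlier results of these data were known. All entries of the 8 genes in 3 deposited tables of splicing events were collected. Those tables hold 1911 distinct events, of which 5 carry the ID of one of the 8 genes, in 7 entries. RNA came from whole 12-day-old seedlings of wild-type Col-0 and of smeb-1 and smeb-2, mutants in the Col-0 background that are affected in SmEb, an Sm core protein of the splicing machinery. All 3 genotypes were kept at 22 °C or at 4 °C for 24 h, which gave 6 groups of 2 replicates and 12 libraries. The labels say neither what the lesions are nor whether replicates were separate cultures, and another label describes the control as 0 h at 4 °C. One table concerns chilled Col-0, another chilled smeb and another smeb at 22 °C. They do not state the groups set against each other and do not separate the alleles. For each event they give its kind, its position and the false discovery rate (FDR), with no value per sample, no size and no direction. The depth per sample is therefore unknown, an event is described here as listed, never as higher or lower, and no test across libraries could be made. In RNA of whole seedlings, a change in the mix of cells and a change of splicing within cells cannot be told apart.

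SR proteins bind pre-mRNA through RNA recognition motifs and bring the U1 particle and the U2AF factor to splice sites. Many of them splice their own transcripts in several ways, and plants often place such alternative exons in a long intron near the recognition motif. A transcript whose stop codon lies far ahead of the last exon junction is a typical substrate of nonsense-mediated decay, the pathway that removes messages with early stops. SR45, related to the animal protein RNPS1, is a partner of U1-70K and U2AF and acts in flower, root and sugar responses, SR45a is known for its induction by heat and strong light, and the SCL and RS2Z subfamilies are specific to plants.

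The splice sites of the listed events are shown first, because they show where the alternative forms differ. Sequences are RefSeq's, read 5′ to 3′ on the strand of the gene from the TAIR10.1 assembly, whose coordinates the listed positions share: all of the events with a member's ID lie inside that gene. For SR45 (chr1:5677346-5677391, minus strand) the capitals mark both acceptor AGs, with the alternative stretch between them. For RS2Z32 and RS2Z33 the capitals mark the AG at the upstream and at the downstream acceptor (chr3:19836121-19836145 and chr3:19835903-19835927, chr2:15671809-15671833 and chr2:15671591-15671615, minus strand).
SR45: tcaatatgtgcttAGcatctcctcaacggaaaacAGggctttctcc
RS2Z32 upstream: atgatcttgttgaAGgtttctgggg
RS2Z33 upstream: atgatcttattgaAGgtctctggga
RS2Z32 downstream: caacaatttacgcAGagtacgagat
RS2Z33 downstream: caatttcttccgcAGagtgcgagat

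Of the 8 genes, 4 were listed for Col-0 under chilling (SR45, SR45a, SCL30A and RS2Z32), 3 for smeb under chilling (SCL30A, RS2Z32 and RS2Z33) and 0 for smeb at 22 °C. Each had 1 event. For Col-0, 4.68% of annotated genes with an intron were listed, and 8.48% of those with at least 5 annotated introns, the fewest of any of the 8. For smeb under chilling these shares were 4.52% and 8.13%, and at 22 °C 0.112% and 0.193%. Counted in events, 13.8% of those tested were listed for Col-0, 13.2% for smeb under chilling and 0.319% for smeb at 22 °C. The numbers of tested events (9710, 10308 and 10657) were recovered from the pairs of p-value and FDR. The header calls these p-values adjusted, and they were taken as the values from which the FDR was computed. The 4 of 8 genes of the Col-0 table and the 3 of 8 of the smeb table thus stood beside gene shares below 10%. Those shares count all annotated genes with an intron, whether or not an event of theirs was tested. The share among genes with a tested event is not known, and the event shares under chilling were higher, at 13.8% and 13.2%. Absence from the table at 22 °C is what nearly all genes show. No test was made, since the genes were chosen with earlier results known.

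**Figure D1:**
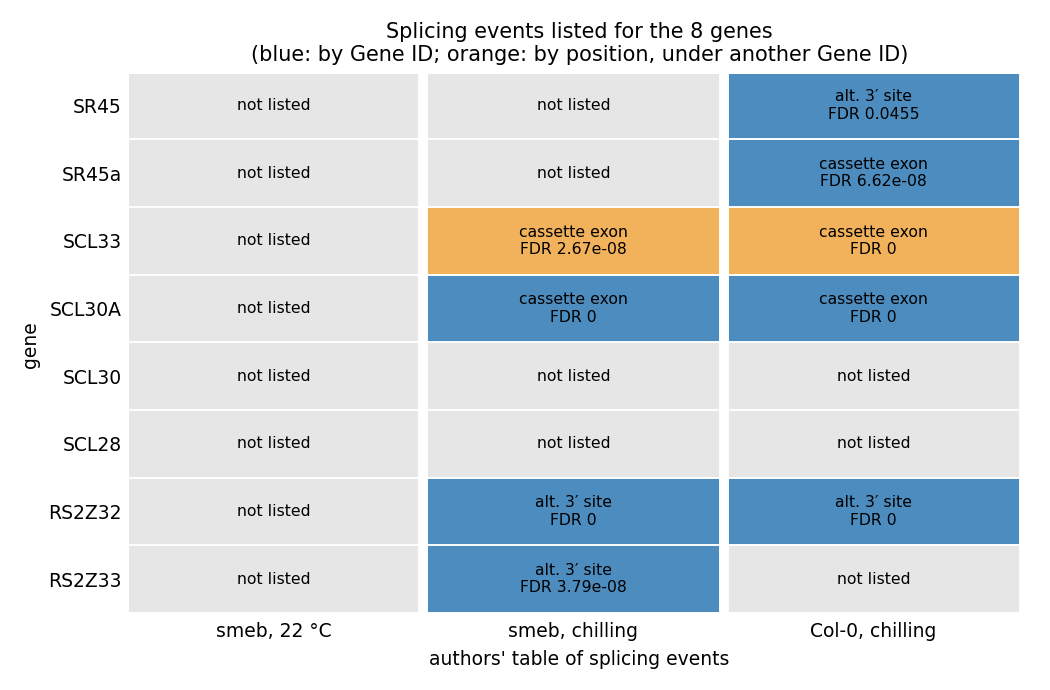
Splicing events of the 8 genes (vertical axis) in the authors' 3 deposited tables (horizontal axis), with the kind of event and its FDR in each cell. Blue cells were found by Gene ID, orange cells by position under another Gene ID, and grey cells are not listed. The column of smeb at 22 °C is grey throughout, and SCL30A and RS2Z32 are blue in both chilling columns.

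SR45 had an alternative 3′ splice site at the acceptor of its intron 6, which moves the start of the next exon by 21 nt (chromosome 1, 5677356 to 5677376, minus strand, coding). Both acceptors are annotated. The FDR in the authors' deposited table for Col-0 was 0.0455, and 46 of the 1339 events in it had a higher one. This is the highest FDR among the events of these genes: its rank was 1299 of 9710 tested, and the last listed event is at rank 1346. SR45 was not listed for smeb. From the annotated start codon, the frame reads 407 codons with the downstream acceptor and 414 with the upstream one, so both forms keep the rest of the protein in frame. These are the known short and long forms of SR45, to which separate roles in root and petal growth have been assigned. In length the event was typical, since the 468 alternative 3′ splice sites listed for all other genes under chilling had a median of 21 nt.

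SR45a had a cassette exon of 99 nt (chromosome 1, 2258747 to 2258845, minus strand) in the 400-nt intron 4 of its longest coding transcript. Its FDR was 6.62e-08 in the authors' deposited table for Col-0, behind 313 events with a lower one. SR45a was not listed for smeb. The annotation holds exons of 307 nt and of 96 nt with the same acceptor, and one of 614 nt that spans the region. The donor of the 96-nt exon lies 3 nt before that of the listed exon. Both donors read GT and stand next to each other, as the capitals show in the donor window (chr1:2258732-2258756), which follows the acceptor (chr1:2258836-2258860) and the first in-frame stop (chr1:2258807-2258830).
SR45a acceptor: gtttccactttcaAGtttctgtggc
SR45a stop: gtctgctgtttgTAGcagcagtgc
SR45a donors: atttaggGTtGTatgccctgcattt

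The SR45a exon is a multiple of 3 nt long and still closes the frame. The stop begins at base 28 of the exon, and the reading frame falls from 382 codons without the exon to 159 with it. The stop then lies 593 nt ahead of the last exon junction.

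Neither SR45 nor SR45a is shown to differ between genotypes. By the recovered number of tests, the last listed event of smeb under chilling is at rank 1693, while 1359 events are listed. If those ranks hold, 334 events ranked above it are missing from that table, against 7 in Col-0. Ranks were whole for 88.4% of pairs in smeb under chilling and 85.3% in Col-0. An event of SR45 or SR45a could be one of them, and which events they are was not tested. The authors placed both genes among 394 SmEb-dependent genes, with the same FDR values in the authors' deposited list. Their term "regulation of RNA splicing" held 5 of 318 dependent genes against 33 of 21859 in the background, and SR45 and SR45a were 2 of those 5. The adjusted p of that term in the authors' deposited table was 0.133. For "RNA splicing", which counted 11 of 318 genes including both, it was 0.232, so neither term passed 0.05.

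**Figure D2:**
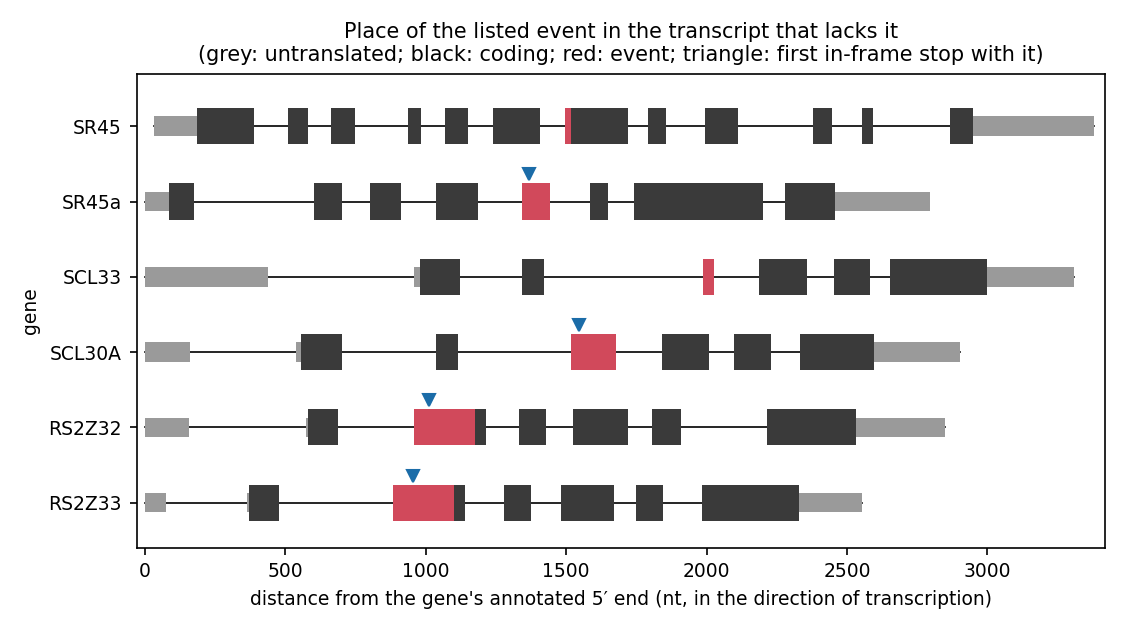
Gene models of the transcript that lacks each event, drawn to scale as distance in nt from the annotated 5′ end of the gene (horizontal axis), with coding exons in black, untranslated exons in grey and the listed event in red. A triangle marks the first in-frame stop where the event shortens the frame. The events of SCL33, SCL30A, RS2Z32 and RS2Z33 sit in the longest intron, and those of SR45 and SCL33 carry no triangle.

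Among the SCL genes, SCL30A had a cassette exon of 161 nt (chromosome 3, 4430483 to 4430643, minus strand) in its intron 3. The FDR was 0 in the authors' deposited table for Col-0 and 0 in that for smeb under chilling, a value that 247 and 324 events share. The intron has 725 nt and is the longest of the 5 in the gene. RefSeq annotates a single transcript for SCL30A, without this exon. The splice sites were therefore read from the genome: the exon follows an AG, and the intron after it opens with GC, not GT. Of 464 cassette exons listed under chilling for all other genes, 10 (2.16%) had a GC donor and 450 a GT.

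The exon of SCL30A is shown whole, because it is in no annotated transcript, with its first in-frame stop in capitals (chr3:4430483-4430643). The stop begins at base 32 of the exon. The acceptor (chr3:4430634-4430658) and donor (chr3:4430468-4430492) carry the intron's outermost 2 bases in capitals.
SCL30A exon: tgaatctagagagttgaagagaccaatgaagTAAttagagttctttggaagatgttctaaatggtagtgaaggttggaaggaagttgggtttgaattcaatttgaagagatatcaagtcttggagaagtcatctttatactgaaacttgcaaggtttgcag
SCL30A acceptor: gttgaggtttaacAGtgaatctaga
SCL30A donor: aggtttgcagGCaagtgcttgcttt

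With the exon, the reading frame of SCL30A falls from 262 to 85 codons, and the stop lies 427 nt ahead of the last junction. Of the coding sequence, 224 nt precede the intron, so most of the protein is encoded after it.

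SCL33, the partner of SR45 and U1-70K, is listed under its own ID in none of the tables, but an event lies inside it. A cassette exon of 36 nt at chromosome 1, 20631687 to 20631722 is listed under AT2G29060, which the tables describe as a GRAS family transcription factor and which the reference places on chromosome 2. This interval is an annotated coding exon of SCL33, in the 765-nt longest intron of that gene. The FDR was 0 in the authors' deposited table for Col-0 and 2.67e-08 in that for smeb under chilling, where 402 events had a lower one. AT2G29060 had no other event. Of 1910 listed events whose gene is in the reference, 22 (1.15%) stand on another chromosome than that gene and 55 (2.88%) do not overlap it. How these IDs were assigned was not tested. Read by position, 5 of the 8 genes were listed for Col-0 and 4 for smeb under chilling. The shares of all genes with an intron, 4.68% and 4.52%, were counted by ID. No share by position was computed, so these 2 counts have no like background.

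The exon inside SCL33 and the exon of SCL30A share their donor. The SCL30A exon aligned from its first to its last base with 162 nt of SCL33 (chromosome 1, 20631561 to 20631722), at 86.9% identity over 160 aligned bases. This stretch ends at the last base of the listed SCL33 exon, follows an AG and is followed by GC. The SCL33 exon is thus its final part, opened by an acceptor further downstream. The windows (plus strand, chr1:20631672-20631696 and chr1:20631713-20631737) mark the AG and the GC.
SCL33 acceptor: aatcaagtcttcaAGaagtcatctt
SCL33 donor: aggctagcagGCaagtgcttgcttt

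The 36-nt exon keeps the frame of SCL33, which reads 287 codons without it and 299 with it. The paralogs SCL33 and SCL30A thus had exons at the same donor listed under chilling, one that keeps and one that ends the frame. The longest run of identical bases between the SCL30A exon and the SCL33 intron is 18 nt. The coding sequences of both genes are 85.3% identical, with a longest shared run of 23 nt.

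SCL30 and SCL28 were listed in none of the tables, neither by ID nor by position. SCL28 is known for its part in the splicing of cell cycle genes. Both have a long intron as well, of 1100 nt in SCL30 and 829 nt in SCL28, against medians of 118 and 138 nt over all annotated introns of each gene. In SCL30 it follows 254 nt of coding sequence, close to the 224 nt in SCL30A and the 221 nt in SCL33. In SCL28 it follows 518 nt. An event that is not listed may have been tested without being called, or not tested.

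RS2Z32 and RS2Z33 had the same event. Each had an alternative 3′ splice site in its intron 2 that adds 218 nt to the front of exon 3 (chromosome 3, 19835913 to 19836130 in RS2Z32, and chromosome 2, 15671601 to 15671818 in RS2Z33, both on the minus strand). The intron is the longest in both genes, with 488 and 624 nt, and follows 107 nt of coding sequence in each. All 4 acceptors are annotated. The added stretches were 86.4% identical over 206 aligned bases, with no identical run above 16 nt, and the windows above show matching bases around both acceptors.

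The tables differ between both paralogs. For RS2Z32 the FDR was 0 in the authors' deposited table for Col-0 and 0 in that for smeb under chilling. For RS2Z33 it was 3.79e-08 in the authors' deposited table for smeb under chilling, with 407 events below it and a rank of 419 of 10308, and the gene was not listed for Col-0. Since both genes carry the event, its absence for RS2Z33 in Col-0 means only that it was not listed there, and no test of the difference between the genotypes or between the paralogs is in the tables. SCL30A and RS2Z32, listed for both genotypes under chilling, are in neither of the authors' lists of SmEb-dependent and SmEb-independent genes. The authors placed RS2Z33, listed for smeb and not for Col-0, among 352 SmEb-independent genes. It is 1 of 18 genes of 296 under their term "RNP complex biogenesis" (437 of 21859 in the background), for which the authors' deposited table gives an adjusted p of 0.0407. A long noncoding RNA annotated on the opposite strand, AT2G08865, overlaps the RS2Z33 event. The handling of strand is not given in the sources used here, so reads of the pair cannot be told apart, although both acceptors belong to annotated RS2Z33 transcripts.

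In both genes the extension closes the frame early, at different bases. The stop begins at base 56 of the stretch in RS2Z32 and at base 74 in RS2Z33, shown in capitals (chr3:19836064-19836087 and chr2:15671734-15671757).
RS2Z32 stop: tggactgtggtgTAAttggtggaa
RS2Z33 stop: tcgccaagtgttTAGgggacaggg

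From the annotated start, RS2Z32 reads 284 codons without the extension and 54 with it, and RS2Z33 290 and 60, a loss of 230 codons in each. The stop lies 592 and 562 nt ahead of the last junction. Of the annotated coding sequence, the first 107 nt remain in each, and the rest of the short frame is read from the added stretch. Which protein domains remain was not tested. RefSeq's own models of the extended transcripts begin their coding sequence at a later start codon instead.

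**Figure D3:**
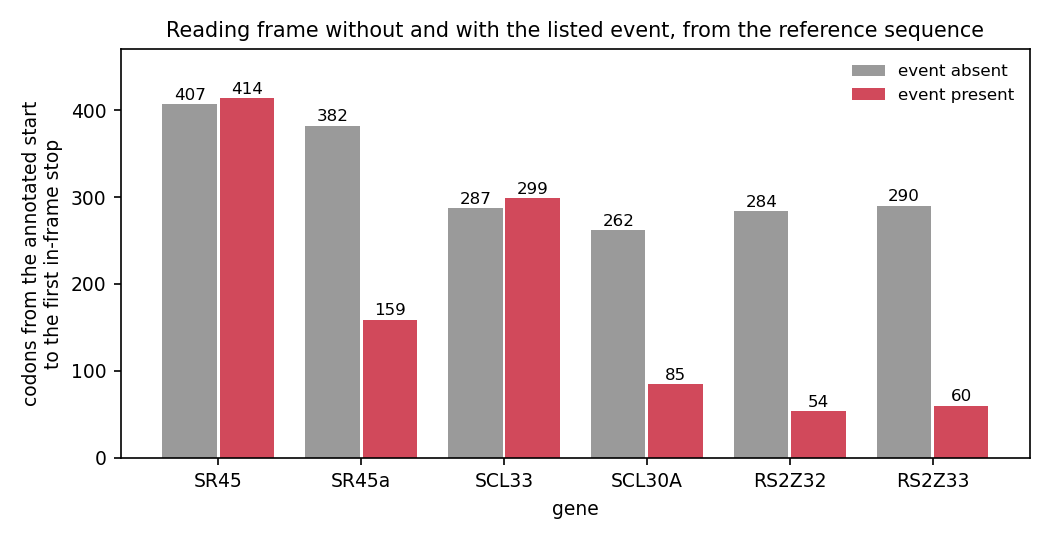
Codons from the annotated start to the first in-frame stop (vertical axis) for the transcript without (grey) and with (red) the listed event of each gene (horizontal axis), computed from the reference sequence. The red bars of SR45a, SCL30A, RS2Z32 and RS2Z33 reach 159, 85, 54 and 60 codons, while SR45 and SCL33 gain 7 and 12.

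Across the genes, the frame is kept by the event of SR45 and by that of SCL33, which was found by position. Of the 5 events found by ID, the other 4 end it more than 50 nt ahead of the last exon junction. Of events of all other genes within a coding span, 120 of 184 cassette exons (65.2%) and 156 of 250 alternative 3′ splice sites (62.4%) did so, and over 5 events nothing is read from the difference to that background. Whether such transcripts were degraded is not measured here, because no transcript levels stand in the tables. The events of SCL30A, RS2Z32 and RS2Z33 lie in the longest intron of the gene, that of SR45a in the second longest, and that of SR45 in the seventh of 15. Read by position, that of SCL33 lies in the longest as well. Of the events of all other genes, 193 of 463 cassette exons (41.7%) and 109 of 459 alternative 3′ splice sites (23.7%) lie in the longest intron.

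SCL30A and RS2Z32 are the genes with an identical event in both chilling tables, which makes 2 of 4 events for Col-0 and 2 of 3 for smeb. Over all genes, 60.3% of the Col-0 events and 59.4% of the smeb events were shared in this way, so the overlap of these genes is near the background. Read by position, SCL33 adds a further one to each. The tables may rest on shared libraries, so this overlap is not an independent repeat. Of the genes listed for 1 genotype, SR45 and SR45a stood in the authors' dependent list and RS2Z33 in the independent one.

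Of 11 other SR proteins, 5 were listed for Col-0 under chilling (SR34, RS31, RS40, RS41 and RSZ22a), 7 for smeb under chilling (the same 5 with SR30 and SR34a) and 0 at 22 °C. The backgrounds were 4.68%, 4.52% and 0.112%. Among genes with at least 5 annotated introns, as all 11 have, they were 8.48%, 8.13% and 0.193%. SR34b, RS31a, RSZ21 and RSZ22 were in none of the tables. They had 10 distinct events, with 7 cassette exons, 2 alternative 3′ splice sites and 1 retained intron, and 8 of the 10 lie in the longest intron of the gene.

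Where the frame ends differed among these proteins. A cassette exon takes RS31 from 264 codons to 71, RS40 from 350 to 38 and RS41 from 357 to 50, as in SCL30A. In SR34 (303 codons, 285 and 272 with its events) and SR30 (268, 256 with either) fewer codons are lost. All 7 events of these proteins for which a frame could be read, those of SR34 and SR30 included, nevertheless place the stop more than 50 nt ahead of the last exon junction. Of events of all other genes within a coding span, 65.2% of cassette exons and 62.4% of alternative 3′ splice sites did so. The events of SR34 lie in the same intron, as do those of SR30, so the 7 are not separate genes. Nothing is read from the difference to that background. The retained intron of RSZ22a, a protein with a single zinc knuckle related to the RS2Z proteins, stood in the authors' deposited tables with an FDR of 0.0168 (Col-0) and of 0.00102 (smeb under chilling).

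**Figure D4:**
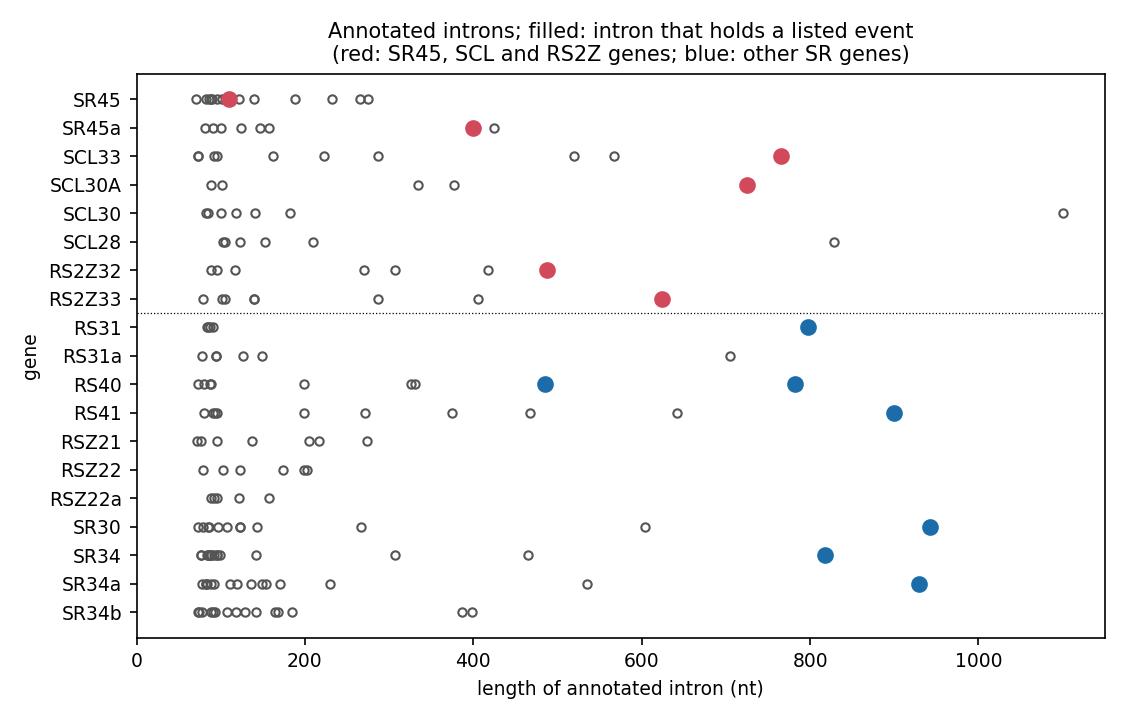
Lengths of annotated introns in nt (horizontal axis) for the 8 genes and, under the dotted line, the other 11 SR genes (vertical axis), with open circles for introns and filled circles for those that hold a listed event, SCL33 by position. Most filled circles are the outermost of their gene, and those of SR45, SR45a and 1 of the 2 in RS40 are not. The retained interval of RSZ22a is no annotated intron and is not drawn.

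The enzymes that phosphorylate SR proteins and the importer that brings them into the nucleus formed a second group of 9 genes. The kinases FC1, FC2 and AT3G25840 were listed for smeb under chilling, 3 of 9, and FC2 and AME3 for Col-0, 2 of 9, with 0 at 22 °C. The same backgrounds were 4.52%, 4.68% and 0.112%, or 8.13%, 8.48% and 0.193% of genes with at least 5 annotated introns. FC2, a kinase of the LAMMER type, had a cassette exon of 115 nt in both, where the authors' deposited tables give an FDR of 0 (smeb) and of 0.000146 (Col-0). SRPK4, the importer MOS14, AT4G35500, AT2G17530 and AT5G22840 were not listed.

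Of 9 genes for spliceosomal partners of SR45 and the SCL proteins, 4 were listed for Col-0 and the same 4 for smeb under chilling, and 1 at 22 °C. The shares were 4.68%, 4.52% and 0.112% of genes with an intron, or 8.48%, 8.13% and 0.193% of those with at least 5. AT4G39680 was listed for different events, a retained intron in Col-0 and a cassette exon in smeb. With an FDR under 0.01, the count for smeb under chilling fell to 2, without AT1G60900 (0.0471 in the authors' deposited table) and AT4G39680 (0.015). The count for Col-0 fell to 3, without AT4G39680 (0.0175 in the authors' deposited table). U1-70K, the U1 protein that SR45 and SCL33 bind, was the one listed in all of the tables. At 22 °C the authors' deposited table lists its alternative 5′ splice site with an FDR of 9.93e-05 and its retained intron of 909 nt with 0.00194. Both events were at 0 under chilling in the authors' deposited tables of Col-0 and smeb. U1-70K reads 427 codons, and 204 with either event. The others were ATU2AF65A and AT1G60900, both large subunits of U2AF, and AT4G39680, a SAP domain protein. ATU2AF35A, U2AF35B, SAP18 and the loci AT3G63400 and AT4G32420 were in none of the tables. The large subunits of U2AF were thus listed, and the small ones, to which SR45 is known to bind, were not. Whether any event of the small ones was tested is not known, so nothing is read from this.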

How the data were processed

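RNA-seq of 12 libraries was processed by the submitters with Trimmomatic 0.32 and TopHat2 2.0.13 on the TAIR10 build, per the submitters' processing notes. No source used here names the caller of the splicing events, its test or its filters. The p-values and FDR per event are those that the authors deposited, as are the p-value, adjusted p and gene count of each gene ontology term. The p-values per event are headed as adjusted, and for what is not stated. No column holds a sample's value, so depth and the precision that follows from it are unknown, and no test was run.

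The 8 loci and the gene lists were chosen with earlier results of these data known. All members and every listed gene of the lists are named. Repeated rows were counted once. Positions were compared with RefSeq's TAIR10.1 annotation. An interval of an alternative 3′ splice site runs from one exon start to the other, so the added stretch is 1 base shorter. Frames were read from the annotated start of the transcript with the longest coding sequence that lacks the event. The number of tested events is the one that makes p times that number divided by FDR, the rank, whole within 0.0001 most often (88.4% of pairs for smeb under chilling, 85.3% for Col-0, 87% at 22 °C). On simulated data it was recovered in 3 of 3 tables. The simulated p-values had full precision and no repeated rows, so this does not show that the recovery holds for the deposited tables. Sequences were aligned with Biopython 1.88 under Python 3.11.15. Alternatives were FDR limits of 0.01 and 0.001, other backgrounds, assignment by position and rebuilt lists, and the background of genes with at least 5 introns, the comparison of shared events by position and the FDR limit for the other lists were added after seeing the data.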

Additional observations from a re-analysis of the deposited data

How the results depend on the processing

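Of 42 alternative values for 18 counts, 40 stayed within 1.5 times the main count. Part of these could not move, so the 40 are no measure of robustness. Another background leaves the count of listed genes unchanged, and a count of 0 stays 0 under a stricter FDR limit. With an FDR under 0.01, SR45 was lost, which left 1 of the genes, SR45a, in the SmEb-dependent list, and the spliceosomal partners listed for smeb under chilling fell from 4 to 2. The construction of this alternative, fewer events, gives both. The count of genes listed for Col-0 fell to 3 under either FDR limit and was 5 by position, and that for smeb under chilling was 4 by position, through SCL33 each time. No background was counted by position. Against protein-coding genes the backgrounds were 4.04% for Col-0, 3.91% for smeb under chilling and 0.0911% at 22 °C. No paired analysis was possible because the tables hold no columns per sample, and no replicate could be left out for the same reason. Depth limits what can be said of genes that are not listed, since the tables do not show which events were tested.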
